A study of Mus musculus with 2 samples.

Results

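Peaks of the RNA helicase DDX10 that lay in transcripts carrying no gene ID in the authors' annotation were examined, at 7 sites annotated to Col4a3, Zfp791, Stac, Pag1, Kdm6a, Fam133b and H2al1n. They were chosen from the annotation column, where the name of the transcript stands on both sides of the slash at which a gene ID would otherwise follow, together with these 7 symbols. The sites gave 9 of the distinct peaks, 5 of 131 in replicate 1 and 4 of 96 in replicate 2. The data are CLIP-seq from E14 mouse embryonic stem cells that stably express DDX10 with a Flag tag. CLIP-seq crosslinks protein to RNA with ultraviolet light, purifies the tagged protein and sequences the RNA fragments that stay attached. Both libraries came from cells given 400 mJ/cm2 of ultraviolet light at 254 nm, and the RNA on the beads was trimmed with micrococcal nuclease for 10 min. Both libraries belong to 1 group, with 2 replicates and no untreated or untagged group among the samples used here. The label for the antibody reads none, and the purification used Flag beads on nuclear extracts. The labels name neither separate cultures for the replicates nor a clone of origin for the tagged cells, and differences between the libraries may thus be technical.

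DDX10 is a DEAD-box helicase, a class of enzymes that open RNA duplexes and remodel RNA-protein particles, and its yeast relative acts in the early steps of ribosomal RNA processing in the nucleolus. Short transcripts annotated without a gene ID can be copies of small structured RNAs, a class that takes in the snRNAs of the spliceosome, the snoRNAs that guide changes to ribosomal RNA, and 5S rRNA, the small rRNA of the large ribosomal subunit that is made outside the nucleolus. Many such copies lie inside introns of protein-coding genes or between genes, and a peak there takes its symbol from the gene whose start is nearest, whether or not that gene's RNA is involved.

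The height of a peak is the authors' value, in tags, with no scaling for depth, and the depth of the libraries is unknown. Heights of all distinct peaks added up to 3491 tags in replicate 1 and 2687 tags in replicate 2, and most of that stood at Rn45s, the ribosomal RNA precursor, outside which 1258 and 687 tags remained. The median height of all distinct peaks was 5 tags in both lists. Since a peak list holds no expression level, the identity of the cells could not be checked: none of 8 embryonic stem cell markers such as Pou5f1 and Nanog, and none of 4 fibroblast markers, was named for a peak in either list. The members had been chosen with results of these lists known, so the values that follow are descriptions with no test.

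The peaks lay in places of different kinds. At 5 sites, those of Col4a3, Zfp791, Stac, Pag1 and Fam133b, the peak lay within the body of the protein-coding gene it was named for and on that gene's strand. At the other 2, those of Kdm6a and H2al1n, both on chromosome X, the peak lay outside the gene, on the opposite strand, and inside a small RNA gene of RefSeq. All but 1 of the sites were in the only exon of a single-exon transcript, and the exception was Pag1, where the peak lay in the only intron of its transcript.

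The H2al1n peak fell in a gene typed as snRNA, a type that takes in the RNAs of the spliceosome. H2al1n encodes a histone H2A variant, but its peak stood 103819 bp past the end of that gene, on chromosome X at 14315476 to 14315507 (mm10), on the minus strand, in exon 1 of 1 of ENSMUST00000082838.1. In the RefSeq table of the same build, GRCm38.p6, the only gene at this position was Gm25202, typed as snRNA, with a length of 191 bp from 14315401 to 14315591. The peak covered bases 76 to 107 of it, counted from its lowest coordinate because the table gives no strand. It was 32 bp wide and 3 tags high, the lowest height in the list, which 36 of the 131 peaks of replicate 1 shared. Replicate 2 had no peak there, and its nearest peak on that strand of the chromosome was 4007961 bp away, at the Kdm6a site.

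The Kdm6a peak fell in a gene named for 5S rRNA. Kdm6a is an X-linked histone demethylase gene, and the peak stood 43532 bp past its end, at 18323468 to 18323480 on the minus strand of chromosome X, in exon 1 of 1 of ENSMUST00000083134.1. RefSeq places n-R5s5 there, from 18323444 to 18323562, a gene of 119 bp named as a nuclear-encoded 5S rRNA and typed as a pseudogene. The peak, 13 bp wide, covered bases 25 to 37 counted from the lowest coordinate, or 83 to 95 counted from the other end. Its height was 13 tags in replicate 2, where 22 of the 96 peaks were higher, and it was not in the list of replicate 1.

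These were the only peaks of either list that overlapped a RefSeq snRNA gene or an n-R5s gene. The table holds 1004 snRNA genes and 69 n-R5s genes, of which 18 are typed as pseudogenes and 51 as rRNA. Both are families of many similar copies, so the reads of these peaks could belong to another copy, and sequences were not compared. Among the n-R5s genes, 42 have the 119 bp of n-R5s5. The length of Gm25202 was shared by 15 snRNA genes, itself included, against a median of 107 bp for all snRNA genes. None of the 15 genes typed as snRNA with an Rnu symbol, Rnu3a and Rnu7 among them, had that length, and Rnu2-10 came close with 187 bp.

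The gene that the peak caller wrote into the names of the H2al1n and Kdm6a peaks was neither of those genes but, for both, Btbd35f15, a member of a gene family with several copies on chromosome X. RefSeq places it 19259880 bp from the H2al1n peak and 15251907 bp from the Kdm6a peak. The caller gave 3 peaks to it in replicate 1 and 1 in replicate 2. The others were peaks of 5 tags near Bcor and 4 tags near Cask, which the authors' annotation put between genes. At the other 5 sites the caller and the annotation named the same gene.

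Col4a3 had the highest of the 9 peaks. Col4a3 encodes a chain of type IV collagen, the network-forming collagen of basement membranes. Its peak spanned 82635077 to 82635094 on the plus strand of chromosome 1 in replicate 1 and 82635078 to 82635094 in replicate 2, in exon 1 of 1 of ENSMUST00000083121.1. That place is 48156 bp into the 135139 bp of the gene, 35.6% of the way. It reached 11 tags in replicate 1 and 38 in replicate 2. In replicate 2 only the 9 Rn45s peaks were higher, so the Col4a3 peak was the highest outside Rn45s, whereas 27 of the 131 peaks of replicate 1 were higher than it.

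Zfp791, a gene for a zinc finger protein, was the other site found in both lists. Its peak lay on the minus strand of chromosome 8, from 85112031 to 85112036 in replicate 1 and to 85112033 in replicate 2, in exon 1 of 1 of ENSMUST00000158588.1. Measured from the RefSeq start of the 15928 bp gene, it stood 11059 bp in, or 69.4% of the way, in replicate 1. The authors' annotation gave 7601 bp from a transcription start for that peak. The height was 5 tags in replicate 1, where 54 peaks were higher, and 20 tags in replicate 2, where 17 were higher. Both peaks were narrow, at 6 and 3 bp, against medians of 20 and 18 bp over all peaks.

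**Figure D1:**
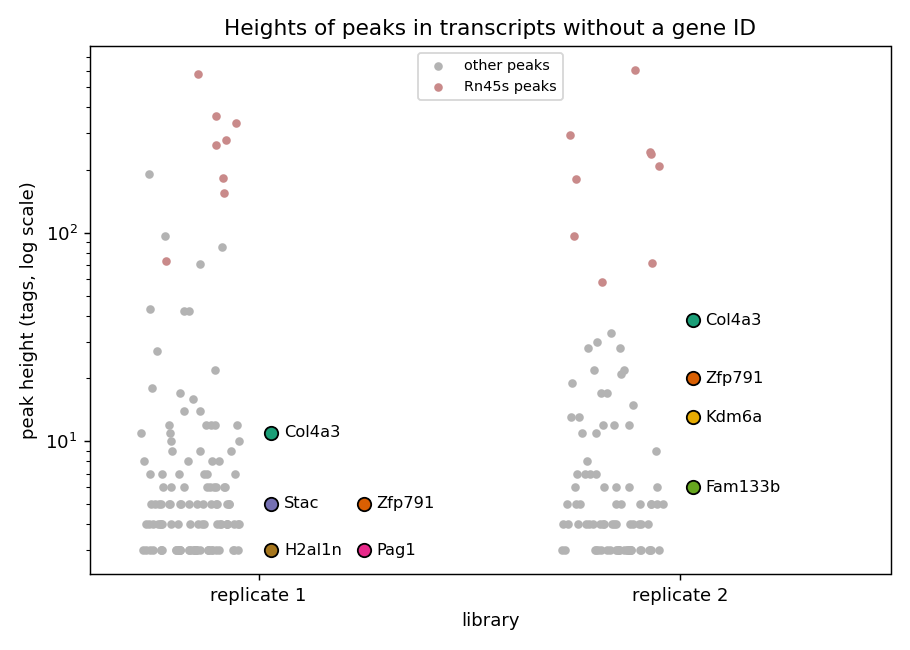
Peak height in tags (vertical axis, log scale) for every distinct peak of each library, with Rn45s peaks in red, other peaks in grey and the peaks in transcripts without a gene ID as large labelled points. In replicate 1 the labelled peaks stand at 3 to 11 tags, and in replicate 2 they stand at 6 to 38 tags, with Col4a3 just under the Rn45s peaks.

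Stac, Pag1 and Fam133b each had a peak of 3 to 6 tags in 1 list. Stac encodes an adaptor protein with an SH3 domain and a cysteine-rich domain. Its peak was 5 bp wide, at 111613940 to 111613944 on the minus strand of chromosome 9, in exon 1 of 1 of ENSMUST00000103968.1, 59.3% of the way along the gene. It had a height of 5 tags in replicate 1, the median of that list. Pag1 encodes a membrane adaptor that binds the kinase Csk in lipid rafts. Its peak, at 9781220 to 9781240 on the minus strand of chromosome 3, lay in intron 1 of 1 of ENSMUST00000160368.1, with a height of 3 tags in replicate 1, and stood 35.9% of the way along the gene. Fam133b had a peak of 6 tags in replicate 2, at 3561230 to 3561249 on the plus strand of chromosome 5, in exon 1 of 1 of ENSMUST00000083110.1, 65.1% of the way along the gene. By RefSeq that is 17397 bp from the gene start, whereas the authors' annotation gave 1568 bp from a transcription start. In RefSeq no gene other than the protein-coding host overlapped these 3 peaks or those of Col4a3 and Zfp791, and no small RNA gene lay within 1 kb of any of the 5. What kind of RNA their transcripts are was therefore not determined.

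**Figure D2:**
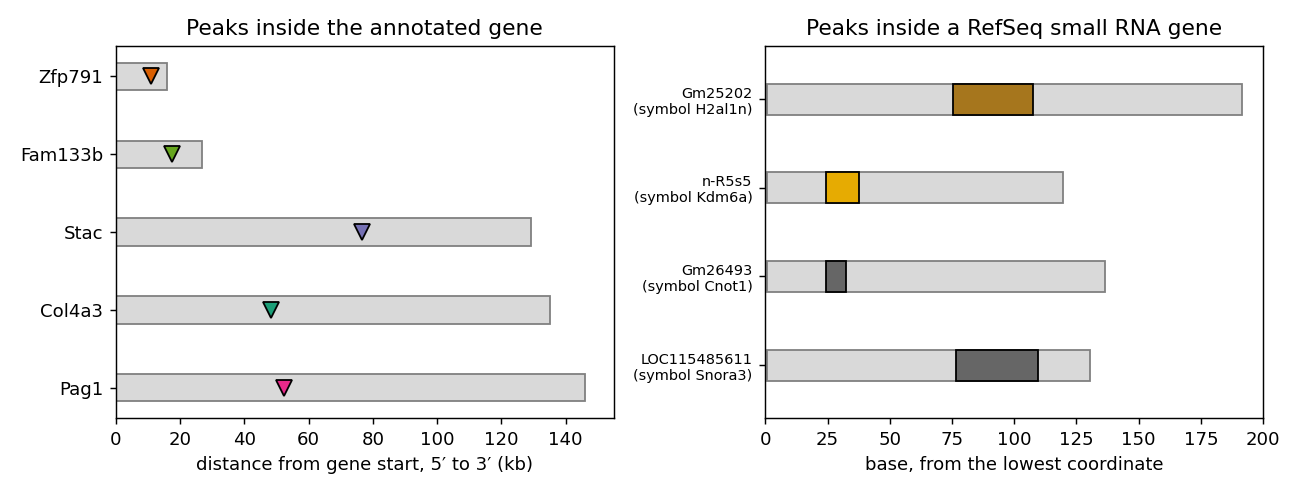
Left, the 5 peaks inside the gene they are named for (triangles), drawn to scale on the gene body in kb from its start. Right, peaks (dark or coloured blocks) inside RefSeq small RNA genes (light bars), in bases from the lowest coordinate, where Gm25202 and n-R5s5 hold the peaks named for H2al1n and Kdm6a, and Gm26493 and LOC115485611 hold the peaks named for Cnot1 and Snora3.

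Peaks in transcripts without a gene ID were not limited to these symbols. Over both lists there were 11 such peaks at 9 sites, and the other 2 sites, named for Cnot1 and Snora3, had peaks in replicate 1 alone. The Cnot1 peak, of 5 tags, lay in the RefSeq snoRNA gene Gm26493, at bases 25 to 32 of 136. The Snora3 peak, of 6 tags, lay 1105 bp from Snora3 in another snoRNA gene, LOC115485611, at bases 77 to 109 of 130. Counting these, 4 of the 9 sites were in a RefSeq small RNA gene, and by RefSeq type they were 1 snRNA, 1 5S-named pseudogene and 2 snoRNAs. Among peaks in transcripts without a gene ID, 3 of 7 in replicate 1 (42.9%, 95% exact binomial interval 9.90% to 81.6%) and 1 of 4 in replicate 2 (25.0%, 0.631% to 80.6%) overlapped a small RNA gene. Over all distinct peaks the share was 9.92% in replicate 1 (13 of 131) and 4.17% in replicate 2 (4 of 96). Of these, 11 in replicate 1 and 2 in replicate 2 were at snoRNA genes. With so few peaks the intervals are wide, and each includes the share over all peaks, in replicate 1 only just. That share counts these same peaks too. Among the other peaks it was 8.06% in replicate 1 (10 of 124), just below the interval of replicate 1. In replicate 2 it was 3.26% (3 of 92), inside the interval of replicate 2. The difference was not tested. The peaks were grouped by an annotation that can mark copies of small RNAs, so the comparison is not independent of the grouping. Intervals here account for counting error alone, because no molecular identifiers are described and tags copied by PCR are not separate molecules.

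The rest of the class was also counted by gene symbol. The symbols of 142 snoRNA and scaRNA genes gave 7 genes named for a peak in replicate 1 and 1 in replicate 2. The symbols of 1193 microRNA genes gave 2 and 4, each as the gene nearest to a peak, and by position no microRNA gene held a peak. Genes with an Rnu symbol (23 of any RefSeq type), 7SK and 7SL RNAs (3), Y RNAs (2) and 5S rRNAs (71) had 0 peaks by symbol in both lists. By position, 1 snRNA gene and 1 n-R5s gene had a peak, the 2 described above. Of the 65 genes typed as rRNA, 1 had a peak by position in replicate 1 and 1 in replicate 2.

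Transcripts without a gene ID made up a large part of the peaks that the authors' annotation calls exonic. All of these transcripts but that of Pag1 have a single exon, so a peak within one has no intron to fall in. The share of exon peaks thus reflects how the transcripts are annotated. Over all distinct peaks, the peaks in these transcripts were 7 of 131 in replicate 1 (5.34%) and 4 of 96 in replicate 2 (4.17%). In replicate 1 they were 6 of 11 exon peaks (54.5%, 95% exact binomial interval 23.4% to 83.3%), with Col4a3, Zfp791, Stac, H2al1n, Cnot1 and Snora3. In replicate 2 they were 4 of 13 (30.8%, 9.09% to 61.4%), with Col4a3, Zfp791, Kdm6a and Fam133b. Among intronic peaks they were 1 of 81 in replicate 1, the Pag1 peak, and 0 of 56 in replicate 2, which allows a share of up to 6.38% (exact binomial interval). The exon peaks outside these transcripts had a median height of 6 tags in both lists. They were few, 5 peaks of 3 to 73 tags in replicate 1 and 9 of 3 to 72 tags in replicate 2. In each list the highest of them was an Rn45s peak.

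The share of peaks at the 7 sites was alike in both libraries, and the share of tags was not. In replicate 1 they held 3.82% of distinct peaks, with a 95% exact binomial interval of 1.25% to 8.68%. In replicate 2 they held 4.17%, with an interval of 1.15% to 10.3%. The mean was 3.99% ± 0.247 (SD, n = 2). Summed over the sites, the heights came to 27 tags in replicate 1, or 0.773% of that list's 3491. The sum for replicate 2 was 77 tags, or 2.87% of 2687. This gave 1.82% ± 1.48 (mean ± SD, n = 2). Outside Rn45s the shares were 2.15% and 11.2%, or 6.68% ± 6.41 (mean ± SD, n = 2). The Col4a3, Zfp791 and Kdm6a peaks of replicate 2, with 38, 20 and 13 tags, were each higher than all 5 peaks at the sites in replicate 1. The median height at the sites was 5 tags in replicate 1, over 5 peaks from 3 to 11 tags, and 16.5 tags in replicate 2, over 4 peaks from 6 to 38 tags. With 2 libraries of 1 group the difference has no test. Col4a3 and Zfp791, the highest of these peaks in replicate 2, had been named for being higher there in an earlier reading of these lists. The difference in tags and in median height thus follows in part from how the sites were chosen, and it is not independent evidence. The likeness in the share of peaks also depends on which symbols were listed. With every peak in a transcript without a gene ID the shares were 5.34% in replicate 1 and 4.17% in replicate 2.

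Of the 7 sites, Col4a3 and Zfp791 were in both lists, Stac, Pag1 and H2al1n in replicate 1 alone, and Kdm6a and Fam133b in replicate 2 alone. The shared sites were 2 of the 5 peaks of replicate 1 and 2 of the 4 of replicate 2. Over all distinct peaks, 33.6% of replicate 1 and 45.8% of replicate 2 overlapped a peak of the other list by at least 1 bp on the same strand, so these counts were near the share of all peaks. No site seen in 1 list had another peak named for the same gene in the other list. The 5 sites found once had 3 to 13 tags, and at such heights a site absent from a list may still have had tags in that library.

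Both shared sites were higher in replicate 2, whereas 14 of all 44 shared peaks were (31.8%). The ratio of the height in replicate 2 to that in replicate 1 was 3.45 at Col4a3 and 4.00 at Zfp791, against a median of 0.750 over the 42 other shared peaks. Of the tags at Col4a3, 77.6% were in replicate 2 (95% exact binomial interval 63.4% to 88.2%, 49 tags), and at Zfp791 80.0% (59.3% to 93.2%, 25 tags). At the 42 other shared peaks together, 43.7% of tags were in replicate 2. Col4a3 and Zfp791 had been named for this direction in an earlier reading of these lists, so it is not independent evidence. It was not particular to them: the ratio was 4.33 at Adgrv1 (3 and 13 tags) and 4.00 at Ica1 (7 and 28 tags), and next below stood Cadps2 with 3.00 (4 and 12 tags).

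**Figure D3:**
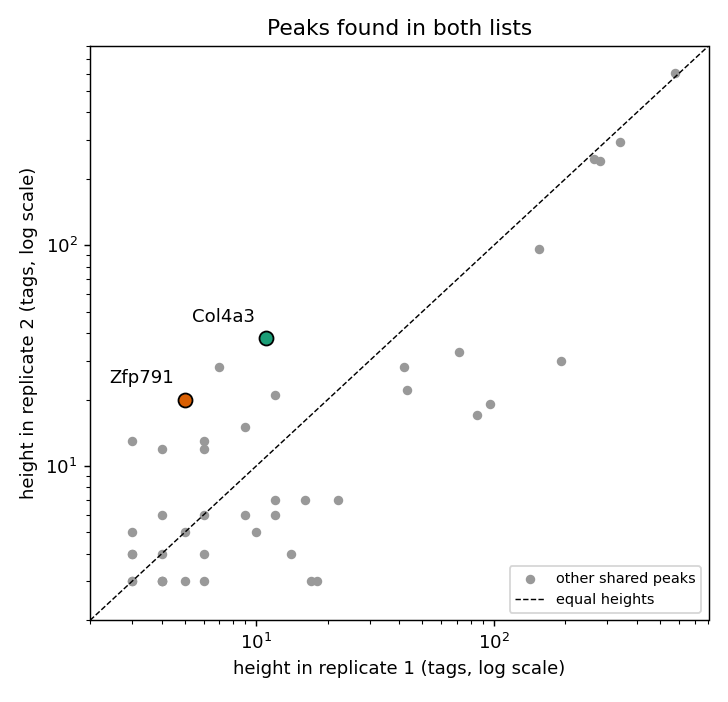
Height in replicate 2 against height in replicate 1, in tags on log scales, for the 44 peaks found in both lists, with the dashed line at equal heights. Col4a3 (11 and 38 tags) and Zfp791 (5 and 20 tags) stand above the line, and 14 of the 44 peaks do.

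The peak caller wrote an expected height, PH0, beside each height, printed to hundredths of a tag. At 5 of the 9 peaks it was printed as 0.00, as it was at 63.4% of all distinct peaks of replicate 1 and 67.7% of replicate 2, so only a lower bound on the ratio can be given, taking PH0 as under 0.005. The bound was at least 2600 at Kdm6a, 2200 at Col4a3 in replicate 1, 1000 at Stac and 600 at both H2al1n and Pag1. Where PH0 was above 0.00 the ratio was 3800 at Col4a3 in replicate 2 (rounding allows 2533 to 7600) and 600 at Fam133b (400 to 1200). At Zfp791 the ratio was 167 in replicate 1 (143 to 200), the lowest of the 9 peaks, and 500 in replicate 2 (444 to 571), a range that overlaps that of Fam133b. The ratio at Zfp791 was thus 3.00 times higher in replicate 2, and rounding allows 2.22 to 4.00 times. For Kdm6a and H2al1n the caller had assigned the peak to the distant Btbd35f15, and how PH0 was computed is not given in the sources used here.

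**Figure D4:**
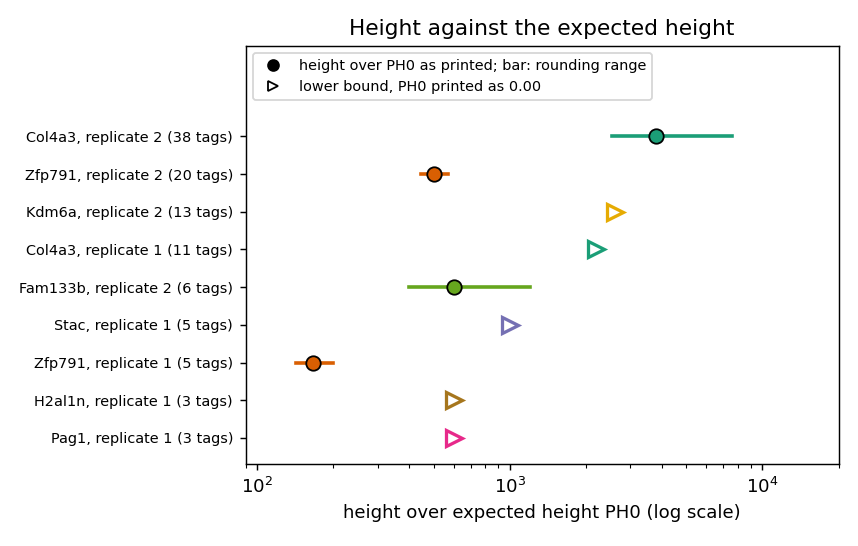
Height over the expected height PH0 (horizontal axis, log scale) for the 9 peaks, ordered by height. Filled points give the ratio with the range that rounding of PH0 allows, from 167 at Zfp791 in replicate 1 to 3800 at Col4a3 in replicate 2, and open triangles give lower bounds where PH0 was printed as 0.00.

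The p-values of the authors' peak caller were lowest for the highest peaks. They stood at 1e-100, the lowest value in either list, for Col4a3 in both replicates and for Zfp791 and Kdm6a in replicate 2. Over all distinct peaks, 33 of 131 in replicate 1 (25.2%) and 28 of 96 in replicate 2 (29.2%) had this value too. The other peaks had caller p-values of 2.02e-09 (Fam133b), 3.74e-09 (Stac), 0.000201 (H2al1n), 0.000925 (Zfp791 in replicate 1) and 0.00723 (Pag1).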

How the data were processed

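Each replicate came with its own peak list, already annotated when deposited, so calling was separate for each library. Reads were aligned to mm10, and BWA, ChIPseeker and deepTools were named without version or role, per the submitters' processing notes. Neither the caller nor its read filters nor a control is stated: not given in the sources used here. Height is the signal value deposited by the authors, and in all lines it matched the PH entry within the name. Widths in bp, PH0, p-values and distances to a transcription start were also read from the deposited lists. All other distances in bp were computed from the peak positions and the RefSeq gene positions.

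Lines with the same position and strand were counted a single time, which removed 2 lines from each list. A peak counted as shared if at least 1 bp of it overlapped a peak of the other list on the same strand. The overlap step was tested on simulated peaks with planted partners. Gene positions and types came from RefSeq (49997 genes, GRCm38.p6, the build of mm10). Small RNA genes were those typed as snoRNA, guide RNA, snRNA, rRNA, tRNA, miRNA or another small RNA, plus genes named n-R5s, 4231 in all. No sequence of these sites was used. Shares carry exact (Clopper-Pearson) 95% intervals. No test was run, since 2 libraries form 1 group. Every member is named, and outside them the remaining peaks in transcripts without a gene ID and the shared peaks with a ratio next to or within the members' range. Members, lists and rules were chosen with earlier results of these data known. Python 3.11.15, pandas 2.3.3 and scipy 1.17.1 were used. Alternatives covered overlap, height, denominators and scaling.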

Additional observations from a re-analysis of the deposited data

How the results depend on the processing

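The sites found in both lists stayed at 2, Col4a3 and Zfp791, when at least 50% of both peaks had to overlap, when peaks within 50 bp or on either strand counted, and at a height of at least 5 tags in both. At that height, replicate 1 kept 3 of its 5 peaks, losing Pag1 and H2al1n, and replicate 2 kept 4. Leaving out Rn45s raised the share of summed height to 2.15% in replicate 1 and 11.2% in replicate 2. The median height in replicate 2 was 29 tags over the shared sites alone. The median ratio of replicate 2 to replicate 1 at the shared sites, 3.73 as deposited, was 4.84 with heights scaled to each list's summed height, 6.83 scaled to the sum outside Rn45s, and 3.00 over PH0, which only Zfp791 allows. With 1 replicate left out, 4 to 5 of the 7 sites remained. The sites in a RefSeq small RNA gene stayed at 2 within 1 kb, an alternative chosen after seeing the data. Counting all deposited lines left the peaks at the sites at 5 and 4. No paired analysis was possible because the series has 1 group. Heights of a few tags and an unknown depth limit every value.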
